A study of Mus musculus with 31 samples.

Results

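The anaphase-promoting complex, its activators, its meiotic and checkpoint inhibitors and its ubiquitin-conjugating partners were followed at the RNA level in single 2-cell mouse embryos. The 10 genes were chosen by name from 20544 genes in the count table: the subunits Anapc1, Anapc2 and Anapc11, the activators Cdc20 and Fzr1, the inhibitors Fbxo5, Fbxo43 and Mad2l1, and the ubiquitin-conjugating enzymes Ube2c and Ube2s. In mm10 they lie at chr2:128610104-128687391 (Anapc1, minus strand), chr2:25272478-25285915 (Anapc2, plus), chr11:120598421-120608198 (Anapc11, plus), chr4:118432901-118437352 (Cdc20, minus), chr10:81366222-81378516 (Fzr1, minus), chr10:5799160-5805600 (Fbxo5, minus), chr15:36150060-36164884 (Fbxo43, minus), chr6:66535390-66547220 (Mad2l1, plus), chr2:164769898-164778822 (Ube2c, plus) and chr7:4794546-4812590 (Ube2s, minus). All 10 passed the filter on low counts and were tested. Together they held between 0.182% and 0.349% of the counts of an embryo.

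The 31 libraries came from wild-type embryos made by in vitro fertilization. Oocytes were taken from superovulated CD1 females aged 8 to 10 weeks, and sperm from C57BL/6J males aged 12 to 14 weeks. For the 16 control-generated embryos the sperm stayed in complete IVF-TYH medium. For the 15 SER-generated embryos (sperm energy restriction and recovery) the sperm were kept without glucose and pyruvate for 15 to 45 min, until they stopped moving, and were then returned to complete medium before insemination. The sperm of the 2 treatments came from the paired epididymides of the same males. Both kinds of embryo were grown in KSOM and collected at 32 h postinsemination (HPI), each as 1 library. The embryos of a group shared culture dishes and sperm preparations that the labels do not trace, so p-values measure the spread between these embryos, which may be partly technical. In whole-embryo libraries, fewer molecules of 1 RNA and more molecules of the other RNAs cannot be told apart.

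The anaphase-promoting complex, or cyclosome, is a ubiquitin ligase that marks cyclins, securin and other mitotic proteins for destruction, and so lets chromosomes separate and cells leave mitosis. Cdc20 activates it at the metaphase-to-anaphase transition, and Fzr1 (Cdh1) activates it from late mitosis into G1 and holds the oocyte in prophase. Fbxo5 (Emi1) inhibits the complex during S and G2 phase. Fbxo43 (Emi2) inhibits it in the metaphase II egg and keeps the egg arrested until the calcium signal of fertilization leads to its destruction. These are controls on proteins; what follows are RNA levels in embryos that have passed meiotic exit and the first cleavage.

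Promoter sequence is shown for Cdc20 and Ube2c, whose levels were correlated between embryos (r = 0.56), for Fzr1, which ran against Ube2c (r = −0.75), and for Fbxo5, the gene with the smallest p between the groups. RefSeq promoters (GRCm38.p6), which run from 250 bases before to 50 bases after the transcription start, were matched for 9 of the 10 genes; Fbxo43 is named only. A pair of short elements common in promoters of cell cycle genes were searched on both strands: the CHR core, TTTGAA, and the CCAAT box, CCAAT. The 4 windows below run from 120 bases before the start to 30 bases into the transcript, 5′ to 3′ on the strand of the gene, and capitals mark every match on either strand. Cdc20 lies at chr4:118437314-118437463 on the minus strand, Ube2c at chr2:164769809-164769958 on the plus strand, Fbxo5 at chr10:5805436-5805585 on the minus strand and Fzr1 at chr10:81378341-81378490 on the minus strand.
Cdc20: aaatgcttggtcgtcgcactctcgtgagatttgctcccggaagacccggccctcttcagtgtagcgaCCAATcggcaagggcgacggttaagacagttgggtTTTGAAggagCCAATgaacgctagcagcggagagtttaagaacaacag
Ube2c: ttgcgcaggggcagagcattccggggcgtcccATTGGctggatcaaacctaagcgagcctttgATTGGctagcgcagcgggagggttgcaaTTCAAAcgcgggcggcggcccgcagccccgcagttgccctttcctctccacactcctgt
Fbxo5: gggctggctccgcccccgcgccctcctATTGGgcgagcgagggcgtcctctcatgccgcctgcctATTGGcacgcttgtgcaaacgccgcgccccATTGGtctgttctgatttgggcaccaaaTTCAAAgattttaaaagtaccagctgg
Fzr1: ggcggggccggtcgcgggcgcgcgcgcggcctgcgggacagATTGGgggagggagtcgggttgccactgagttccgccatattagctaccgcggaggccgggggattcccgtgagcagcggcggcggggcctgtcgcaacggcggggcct

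The promoters of Cdc20, Ube2c and Fbxo5 each held both elements, and those 3 were the only ones of the 9 matched genes that did. In Cdc20 the CHR core began 18 bases before the start, between CCAAT boxes that began 53 and 8 bases before it. In Ube2c it began 29 bases before the start, with CCAAT boxes 57 and 88 bases before it and 4 more farther upstream, of which 1 pair overlapped on opposite strands. In Fbxo5 it lay 3 bases after the start, and 3 CCAAT boxes began 25, 55 and 93 bases before the start. The Fzr1 promoter held 1 CCAAT box, 79 bases before the start, and no TTTGAA. Over all 32851 promoters in the table, 17.9% held the CHR core, 37.4% a CCAAT box and 6.95% both. Fbxo5, with both elements, had r of −0.03 with Cdc20 and 0.29 with Ube2c over all embryos. These were 0.39 and 0.20 without the embryos that are set apart below. Within control-generated embryos they were −0.19 and 0.04, and within SER-generated embryos 0.25 and 0.76. Anapc11, without TTTGAA, had 0.52 with Ube2c over all embryos. Whether the elements go with covariation was not tested. A match is a description of letters and was not tested for binding or for a link with levels.

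Libraries held 532945 to 3088396 counts, with a median of 955806 in control- and 1375560 in SER-generated embryos. RNAs stored in the oocyte (25 of 26 listed genes in the table, led by Tcl1, Dppa3 and Bcl2l10) and RNAs of the 2-cell burst (24 of 31, led by Usp17lb, Zfp352 and Sp110) each had a sum above 0 in every embryo. Not every gene was found in each: Usp17lb had counts in 29 of 31 embryos, and Tdpoz5 was at 0 throughout. Sperm markers (14 genes) summed to between 14.8 and 109 CPM (counts scaled to a library of 1000000). Cumulus markers (16 genes) summed to between 12.9 and 308 CPM in 30 embryos and to 3857 CPM in control embryo 5, the embryo with the lowest Cdc20; the part of this in the Cdc20 result was not tested, and without control embryo 5 the SER difference in Cdc20 was 0.20 (log2). A 2-cell index was formed for each embryo as the mean log2 CPM of 20 tested 2-cell burst genes minus that of 24 tested oocyte genes; it contains none of the 10 genes. In 29 embryos the index lay between −3.51 and −0.58. Control embryo 4 (−6.95) and SER embryo 15 (−6.44) stood apart from these, so results below are also given for the 29 embryos without both. The mean index was −2.32 ± 1.32 (SD, n = 16) in control- and −1.98 ± 1.42 (SD, n = 15) in SER-generated embryos, a difference of 0.35 (two-sided permutation test, p = 0.504), and 0.36 over 29 embryos (p = 0.131, the same permutation test).

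Per kilobase of exon, the genes ran, by their medians, from Fbxo5, Cdc20 and Ube2c through Ube2s, Mad2l1, Fzr1 and Fbxo43 to the 3 subunits. Levels between genes are given as counts per kilobase of exon union, scaled to library size as in CPM (RPKM), as mean ± SD over 31 embryos. Fbxo5 stood at 167 ± 66.4 RPKM (median 173), Cdc20 at 212 ± 113 (median 172) and Ube2c at 131 ± 95.9 (median 110). Fbxo5 and Cdc20 were neighbours that did not separate: Fbxo5 was the higher in 13 embryos. By this length Cdc20 lay above Ube2c in 27 of 31 embryos, and Ube2c above Ube2s in 22; both turned around with the other length given below.

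Ube2s, which extends the ubiquitin chains that Ube2c begins, had a mean of 85.1 ± 39.9 RPKM. Mad2l1 (Mad2), the checkpoint protein that binds Cdc20 when kinetochores are unattached, had a mean of 56.0 ± 33.8 RPKM. Fzr1 (33.2 ± 24.3) and Fbxo43 (39.7 ± 29.4) did not separate, with Fzr1 the higher in 12 of 31 embryos. Both inhibitors of the Emi type were therefore measured in embryos of both groups, with Fbxo5 far above Fbxo43 in the average embryo.

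Among the subunits, Anapc11, the RING subunit that binds the conjugating enzyme, had a mean of 13.6 ± 7.70 RPKM and Anapc2, the cullin subunit, of 11.7 ± 6.41 RPKM. They did not separate, Anapc11 being the higher in 16 embryos. Anapc1, the largest scaffold subunit, was lowest at 4.52 ± 2.09 RPKM. Before division by length its mean was 75.5 CPM, beside 69.0 CPM for Anapc11 and 40.3 CPM for Anapc2. The counts pool 5′ end reads with internal reads, by the study's methods, and how far they scale with length was not tested. These levels depend on the length used. With the transcript of the longest coding sequence in place of the exon union, Ube2s moved from rank 4 to rank 1 (389 ± 182 RPKM, at a length of 1.13 in place of 5.14 kb). Ube2c then lay above Cdc20 in 26 of 31 embryos and Ube2s above Ube2c in 22, and Fbxo5 dropped from rank 1 to rank 4, so the order among these 4 genes depends on the length used. Fzr1 and Mad2l1 traded places, and the 3 subunits stayed at the bottom in the same order.

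Of the exons counted, 592 of 2600 bases of Ube2c are shared with Tnnc2 on the other strand, 183 of 5141 bases of Ube2s with Rpl28, 53 of 1868 bases of Cdc20 with Elovl1, and 4 of 4488 bases of Fzr1 with Mfsd12. Whether strand was used in counting is not given in the sources used here, so reads in these stretches cannot be assigned to 1 of the genes. Over all 31 embryos Rpl28 had 3301 counts, Mfsd12 1947, Elovl1 955 and Tnnc2 408.

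**Figure D1:**
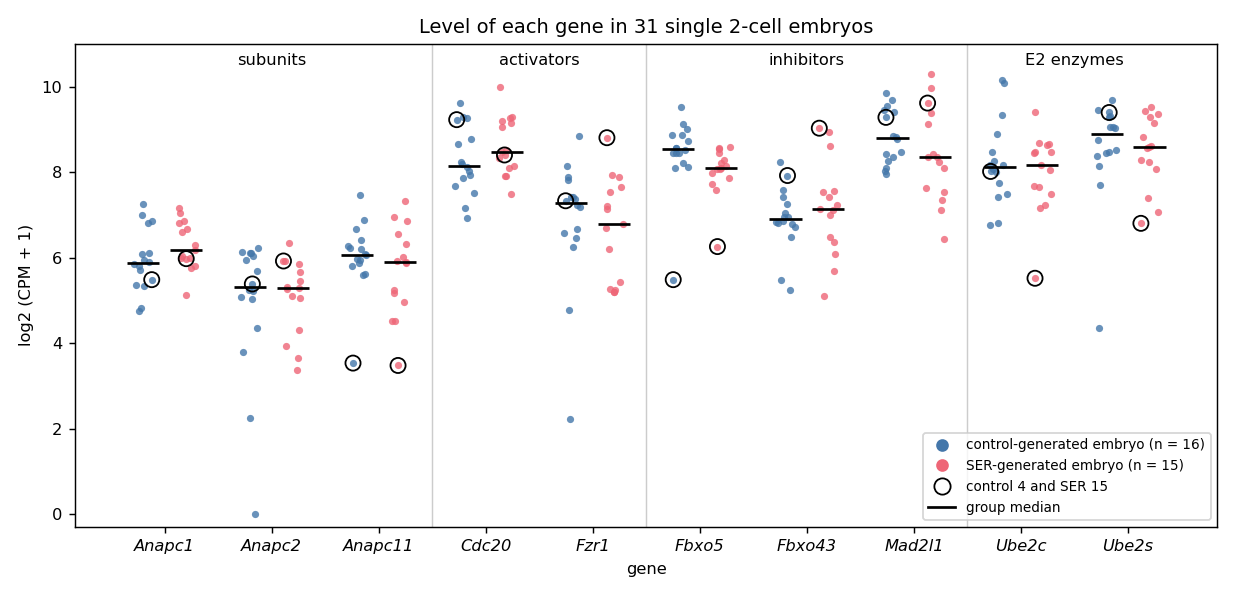
Level of each gene as log2 (CPM + 1) in every embryo, control-generated in blue and SER-generated in red, with black bars at the group medians and rings around control embryo 4 and SER embryo 15. The ringed embryos are the 2 lowest for Fbxo5 and for Anapc11, and the 2 groups overlap for every gene.

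The first comparison asked whether the sperm treatment altered these RNAs in the 2-cell embryo. None of the 10 genes was called at an adjusted p under 0.1 (edgeR quasi-likelihood test, Benjamini-Hochberg over 8571 genes), where the share of all genes called was 0%. At an unadjusted p under 0.05 there was 1 of 10, Fbxo5, where 5.73% of all genes (491) had such a p. DESeq2 also called none of the 10, with 49 genes called in all, and limma voom with sample weights called 1, Fzr1, with 848 genes called in all. Estimates were higher in SER-generated embryos for 3 genes and lower for 7, with a median log2 fold change of −0.18, beside 0.02 over all genes tested.

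Fbxo5, the interphase inhibitor, ran from 43.8 CPM in control embryo 4 through a median of 373 to 738 CPM in control-generated embryos. In SER-generated embryos it ran from 75.6 CPM in embryo 15 through a median of 273 to 385 CPM. The groups overlapped, but 13 of 15 SER-generated embryos lay below the control median. The log2 fold change was −0.52 (SE 0.22, 95% interval −0.97 to −0.07), with an unadjusted p of 0.0261 and an edgeR adjusted p of 0.809. It ranked 275 of 8571 genes by p.

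Without control embryo 4 and SER embryo 15, Fbxo5 ran from 273 to 738 CPM in 15 control- and from 191 to 385 CPM in 14 SER-generated embryos. The log2 fold change was −0.54 (SE 0.16, 95% interval −0.87 to −0.21), the unadjusted p 0.00231 and the adjusted p 0.318 (edgeR), at rank 61 of 8572, where 7.78% of all genes had an unadjusted p under 0.05 and 0% were called. Its dispersion between embryos was the lowest of the 10 genes, with a biological coefficient of variation of 0.44, beside a median of 0.68 over all genes. The difference in Fbxo5 thus pointed the same way with and without these embryos and did not pass the adjusted threshold in either set.

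Fbxo43, the inhibitor that keeps the egg in meiotic arrest, had an estimate in the opposite direction. It ran from 36.6 through a median of 119 to 301 CPM in control- and from 33.6 through 139 to 521 CPM in SER-generated embryos, the highest being SER embryo 15. The log2 fold change was 0.45 (SE 0.33, 95% interval −0.22 to 1.13; edgeR adjusted p = 0.935), and 0.34 (SE 0.31) without the 2 embryos. SER-generated embryos 13, 14 and 15 lay above the whole control range, and 11 of 15 lay within it. Mad2l1 ran from 246 through 448 to 923 CPM in control- and from 85.2 through 326 to 1248 CPM in SER-generated embryos, with a log2 fold change of −0.25 (SE 0.32, 95% interval −0.89 to 0.40). The SER-generated embryos spread on both sides of the control range for Mad2l1, with 8 of 15 inside it. With log2 library size as covariate, the estimates were 0.13 for Fbxo43 and −0.69 for Mad2l1, and neither was called. The part of depth in these estimates was not tested.

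Of the activators, Cdc20 ran from 120 through a median of 283 to 789 CPM in control- and from 178 through 354 to 1013 CPM in SER-generated embryos. Its log2 fold change was 0.27 (SE 0.27, 95% interval −0.28 to 0.81), with 11 of 15 SER-generated embryos above the control median. Fzr1 was the most variable of the 10 genes, with a coefficient of variation of 0.75. It ran from 3.68 CPM in control embryo 1 through 155 to 456 CPM in control- and from 35.5 through 109 to 447 CPM in SER-generated embryos. Its log2 fold change was −0.20 (SE 0.40, 95% interval −1.01 to 0.61), and −0.46 (SE 0.38) without the 2 embryos. Under limma voom with sample weights it was −1.02 with an adjusted p of 0.0677, the single call among the 10 genes in any setting of this comparison. In all other settings its adjusted p lay between 0.634 and 1.00.

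The conjugating enzymes gave intervals that spanned 0. Ube2c ran from 107 through 276 to 1138 CPM in control- and from 44.8 through 289 to 677 CPM in SER-generated embryos. Its log2 fold change was −0.46 (SE 0.34, 95% interval −1.16 to 0.23), although its median was slightly the higher in SER-generated embryos. Ube2s ran from 19.5 through 476 to 829 CPM in control- and from 111 through 383 to 741 CPM in SER-generated embryos, with a log2 fold change of −0.17 (SE 0.30, 95% interval −0.77 to 0.44). The low control value, 20 counts in control embryo 3, stood far from the other embryos of its group.

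Among the subunits, Anapc1 was estimated higher, at 0.20 (SE 0.26, 95% interval −0.33 to 0.72), with 12 of 15 SER-generated embryos above the control median of 57.6 CPM. Anapc11 was estimated at −0.25 (SE 0.33, 95% interval −0.91 to 0.42) and ran from 10.6 to 175 CPM in control- and from 10.1 to 159 CPM in SER-generated embryos. Anapc2 was estimated at −0.09 (SE 0.39, 95% interval −0.89 to 0.70). It had 0 counts in control embryo 3, which allows up to 2.93 CPM at 3 counts of 1025339 and covers counting error only. Each of these intervals spans 0 by a wide margin. Over 29 embryos the log2 fold changes were 0.20 for Anapc1, −0.17 for Anapc2, −0.25 for Anapc11, 0.35 for Cdc20, −0.29 for Mad2l1, −0.41 for Ube2c and −0.05 for Ube2s, all in the direction of the full set.

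**Figure D2:**
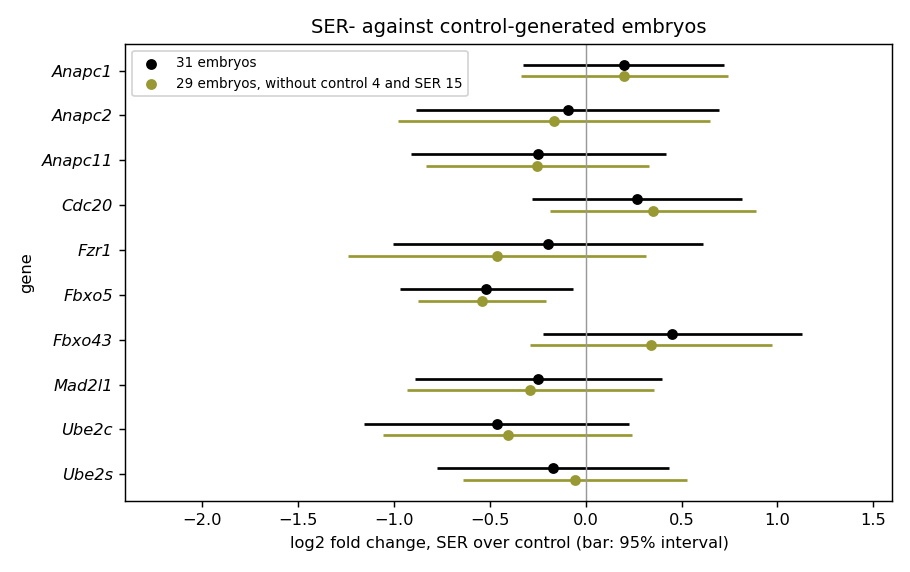
Log2 fold change of SER- over control-generated embryos for each gene, with 95% intervals, from all 31 embryos (black) and from 29 embryos without control embryo 4 and SER embryo 15 (olive). The interval of Fbxo5 lies below 0 in both sets, and the intervals of the other 9 genes cross 0.

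With edgeR, no gene of 4 further pathway lists was called. DESeq2 called 1, Cks1b, and limma voom with sample weights called 9: Anapc15, Cdc27, Cenpf, Map2k1, Mapk3, Plk4, Ska3, Trip13 and Zwilch. The 4 lists held 10, 14, 27 and 24 tested genes. Over all 8571 tested genes DESeq2 called 49 and limma voom 848, and nothing particular to the lists is drawn from these calls. The genes named in each list are those with the smallest p in each direction in edgeR. Of 10 tested genes among 11 further subunits, 8 were estimated higher and 2 lower (median 0.24, beside 0.02 over all genes). The smallest p-values belonged to Anapc10, a substrate-binding subunit (−0.82, SE 0.33, unadjusted p = 0.0184), and to Cdc26, a small stabilizing subunit (−0.95, SE 0.43, unadjusted p = 0.0349), with edgeR adjusted p of 0.745 and 0.809. On the higher side, the smallest p belonged to Anapc15 (0.30, SE 0.24) and Cdc23 (0.34, SE 0.30).

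Of 14 genes listed by name for the spindle checkpoint, not all of them core components, 10 were estimated higher and 4 lower (median 0.13). The kinase gene Ttk (Mps1) stood at 0.54 (SE 0.33) and Zwilch, of the complex that recruits dynein to kinetochores, at 0.47 (SE 0.34). On the lower side stood Mad2l2 (−0.38, SE 0.27) and Bub1, a checkpoint kinase (−0.20, SE 0.32). No gene of this list had an unadjusted p under 0.05.

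Of 27 tested substrates of the complex, 13 were estimated higher and 14 lower (median −0.01). Cks1b, a small cyclin-dependent kinase subunit, was lower at −1.01 (SE 0.30, unadjusted p = 0.00157, edgeR adjusted p = 0.403), with means of 373 ± 353 CPM (SD, n = 16) in control- and 201 ± 43.4 CPM (SD, n = 15) in SER-generated embryos; it was called by DESeq2. Pttg1, which encodes securin, was estimated at −0.62 (SE 0.47), Aurkb at 0.54 (SE 0.28) and Ska3, a kinetochore-microtubule coupler, at 0.52 (SE 0.26). Of 24 tested genes of meiotic arrest and exit, 7 were estimated higher and 17 lower (median −0.11). The smallest p belonged to Ensa (0.46, SE 0.26) and Rps6ka1 (0.35, SE 0.28) on the higher side, and to Wee1 (−0.41, SE 0.32) and Plk4 (−0.28, SE 0.23) on the lower. Over 29 embryos no gene of these 4 lists was called, and their medians were 0.25, 0.08, −0.02 and −0.18, beside −0.01 over all genes.

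The second comparison followed the genes along the 2-cell index, in a model that also held the group, to describe how their RNAs varied between embryos collected at 1 time. Fbxo5, Anapc11 and Ube2c rose with the index and Fzr1 and Fbxo43 fell, 5 of 10 genes called at an adjusted p under 0.1. The index moved with much of the transcriptome: 49.7% of the 8527 genes outside it were called, 29.7% rising and 20% falling, so a count of 5 in 10 is close to the background. Slopes are given as log2 change per unit of index.

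Anapc11 rose by 0.54 (SE 0.12, edgeR adjusted p = 0.000591), Fbxo5 by 0.37 (SE 0.08, adjusted p = 0.000516 in edgeR) and Ube2c by 0.34 (SE 0.11, edgeR adjusted p = 0.0158). Fzr1 had a slope of −0.38 (SE 0.13) and Fbxo43 of −0.29 (SE 0.10), each with an edgeR adjusted p of 0.0160. So the interphase inhibitor Fbxo5 and the egg-arrest inhibitor Fbxo43, like the late activator Fzr1 and the enzyme Ube2c, went in opposite directions. The slopes of Cdc20 (0.03, SE 0.08), Anapc1 (0.08, SE 0.10), Ube2s (−0.03, SE 0.11), Mad2l1 (−0.16, SE 0.11) and Anapc2 (−0.17, SE 0.14) did not pass.

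Much of this rested on control embryo 4 and SER embryo 15. In these, Fbxo5 had 43.8 and 75.6 CPM, below the 191 to 738 CPM of the other 29 embryos, and Anapc11 had 10.6 and 10.1 CPM, below their 21.8 to 175 CPM. Fbxo43 had 241 CPM in control embryo 4 and 521 CPM in SER embryo 15, the latter above the 33.6 to 491 CPM of the others. Ube2c parted them: it had 44.8 CPM in SER embryo 15, the lowest of all, and 258 CPM in control embryo 4, near the median of 288 CPM. Cdc20 was not low in either, with 599 and 337 CPM beside a median of 302 CPM.

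Among the 29 other embryos, Cdc20 and Ube2c rose with the index, and the other 8 genes did not pass. Cdc20 rose by 0.76 per unit (SE 0.18, 95% interval 0.39 to 1.13, edgeR adjusted p = 0.0141) and Ube2c by 0.86 (SE 0.23, 95% interval 0.38 to 1.33, edgeR adjusted p = 0.0242), where 15% of 8528 genes outside the index were called, 9.79% rising and 5.24% falling. Fbxo5 had a slope of 0.05 (SE 0.13, 95% interval −0.21 to 0.31) and Fbxo43 of −0.18 (SE 0.27), so for these inhibitors the calls of the full set were lost. Anapc11 kept a slope of 0.51 (SE 0.24, edgeR adjusted p = 0.168) and Fzr1 had −0.70 (SE 0.31, edgeR adjusted p = 0.147), with wider errors. Ube2c was the single gene called in both sets.

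The total of genes called moved with the setting as well, from 4274 of 8571 genes with the full index and all embryos. With an index from the oocyte list alone, all 3 rising genes lost their calls (edgeR adjusted p of 0.1004 for Fbxo5, 0.354 for Anapc11 and 0.605 for Ube2c). Fzr1 and Fbxo43 were called, and Mad2l1 was called at −0.77 (edgeR adjusted p = 0.00980), beside 3644 of 8571 genes in all. With an index from the 2-cell list alone, Fbxo43 lost its call (edgeR adjusted p = 0.113), and 3037 of 8571 genes were called in all. Leaving out 1 embryo changed the calls as well. Without SER embryo 15, 2 genes were called, Anapc11 and Fbxo5, and the slope of Ube2c was 0.27 (edgeR adjusted p = 0.121). Without control embryo 4, 6 were called, with Cdc20 joining at 0.24 (edgeR adjusted p = 0.0805). Without SER embryo 13, which had the highest Mad2l1, Mad2l1 was called at −0.23 (edgeR adjusted p = 0.0545), beside 4600 of 8551 genes in all.

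**Figure D3:**
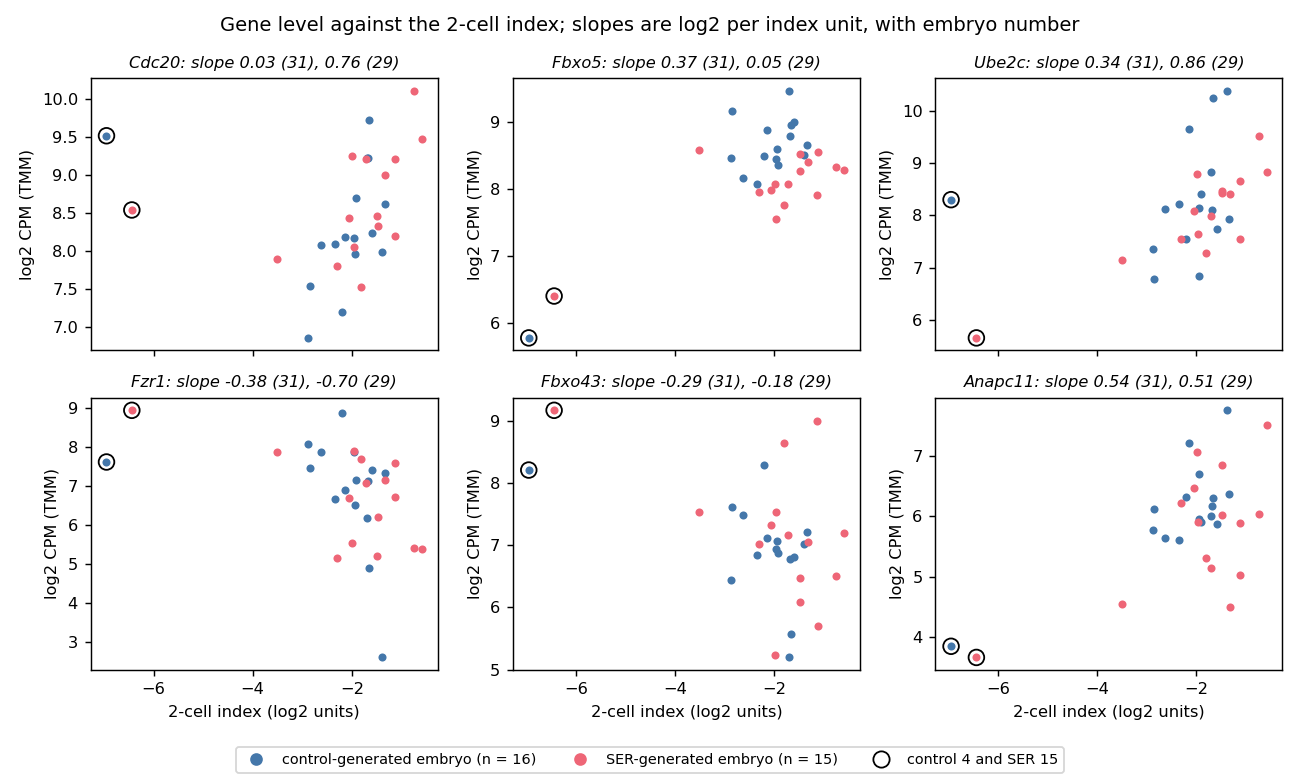
Log2 CPM after TMM scaling against the 2-cell index for 6 genes, 1 point per embryo, control-generated in blue and SER-generated in red, with rings around control embryo 4 and SER embryo 15. Panel titles give the slope over 31 and over 29 embryos: Fbxo5 rises at 0.37 with the ringed embryos and 0.05 without them, while Cdc20 has 0.03 with them and 0.76 without.

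Within groups, Fbxo5 and Anapc11 rose along the index in both. Fbxo5 had slopes of 0.52 in 16 control- and 0.27 in 15 SER-generated embryos, with edgeR adjusted p of 0.00710 and 0.0687. Anapc11 had slopes of 0.53 and 0.54, with edgeR adjusted p of 0.0204 and 0.0445. Each group holds 1 of the low embryos. Ube2c was called in SER- (0.59) and not in control-generated embryos (0.18), and Fzr1 likewise (−0.45 and −0.22), while Fbxo43 had −0.29 in each. A test of the difference between the slopes of the groups called no gene, with the lowest adjusted p of the 10 genes at 1.00 over 31 and 0.895 over 29 embryos (edgeR), so these slopes were not shown to differ between groups.

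Over the 4 pathway lists, 42 genes were called along the index; their shares are read against the 49.7% called among all genes outside the index, and nothing particular to the lists is drawn from them. Among the 10 further subunits tested, 4 were called: Anapc7 (0.29, SE 0.10), Cdc27 (0.27, SE 0.09) and Cdc23 (0.27, SE 0.12), of the TPR scaffold that binds the activators, rose, and Cdc16, of the same scaffold, fell at −0.29 (SE 0.11). Over 29 embryos 1 was called, Anapc7, at 1.14 (edgeR adjusted p = 0.00493). Among the 14 genes listed for the checkpoint, 6 rose and 2 fell. Trip13 (0.89, SE 0.18), whose product takes apart the Mad2-containing checkpoint complex, and its adaptor Mad2l1bp (0.77, SE 0.10) rose, as did Spdl1 (0.50), Kntc1 (0.37), Mad1l1 (0.26) and Mad2l2 (0.20). Ttk (−0.47, SE 0.06) and Zwint (−0.22, SE 0.09) fell. Over 29 embryos 4 were called, all rising: Mad2l1bp (0.72), Mad2l2 (0.67), Spdl1 (0.48) and Bub3 (0.54).

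Among 27 substrates, 11 rose and 3 fell. The 3 that fell were the cyclin genes Ccnb2 (−0.41, SE 0.08) and Ccnb1 (−0.22, SE 0.07) and Pttg1, which encodes securin (−0.35, SE 0.13). Those that rose were Top2a, the topoisomerase that untangles sister chromatids (0.70, SE 0.15), Hmmr, a spindle assembly factor (0.63, SE 0.14), Skp2 (0.43), Kif22 (0.39), Cdt1 (0.32), Aurkb (0.31), Cdc6 (0.28), Ska3 (0.24), Ccna2 (0.22), Espl1 (0.22) and Nek2 (0.16). Over 29 embryos 5 substrates were called, all rising: Top2a, Kif22, Cdt1, Ska3 and Tpx2. Hmmr had 0.12 there (edgeR adjusted p = 0.698), and Skp2, Aurkb, Cdc6, Ccna2, Espl1 and Nek2 also lost their calls. None of the 3 that fell was called there: Ccnb2 had −0.20, Ccnb1 −0.06 and Pttg1 0.37, with edgeR adjusted p of 0.626, 0.882 and 0.585.

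Among 24 genes of meiotic arrest and exit, 4 rose and 12 fell. Ppp2ca (0.64, SE 0.13), a phosphatase catalytic subunit, Cdk1 (0.60, SE 0.11), Ppp2r5e (0.34) and Ppp2r5d (0.28) rose. The genes that fell included Cdc25b (−0.52, SE 0.09), the phosphatase that starts meiotic resumption, Arpp19 (−0.47), Btrc (−0.42), which targets both Emi proteins for destruction, Map2k1 (−0.42), Ppp3r1 (−0.33), Ppp2r1a (−0.31), Plk4 (−0.30), Mapk3 (−0.29), Camk2g (−0.29), the calcium-dependent kinase of egg activation, Mastl (−0.18), Ensa (−0.17) and Wee2 (−0.17). Over 29 embryos 8 were called, 2 rising and 6 falling, with Cdc25b at −0.92 and Cdk1 at 0.70. Of the genes that rose, Ppp2r5e (0.05) and Ppp2r5d (0.01) lost their calls there. Of those that fell, Btrc (−0.07), Ppp2r1a (−0.06), Arpp19 (−0.36), Mastl (−0.10), Wee2 (−0.37) and Ensa (0.32, a change of sign) lost theirs. Over 29 embryos, the share of all genes called was 15%.

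The 10 genes were also compared with each other across embryos, as a description. Correlations are Pearson's r of log2 CPM over 31 embryos after group means were removed; the points share libraries, depth and the index. Of 45 pairs, 5 had r above 0.5 and 5 below −0.5, and 42 kept their sign over 29 embryos. The highest was between Fbxo43 and Mad2l1, at 0.79 (0.76 over 29 embryos), with 0.49 within control- and 0.93 within SER-generated embryos. Cdc20 and Ube2c had 0.56 (0.64 over 29 embryos), and Fzr1 and Fbxo43 had 0.55 (0.48). Anapc11 and Fbxo5 had 0.55, which fell to 0.03 without the 2 embryos.

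The lowest r was between Fzr1 and Ube2c, at −0.75 (−0.72 over 29 embryos), with −0.73 in control- and −0.77 in SER-generated embryos. Anapc11 and Fzr1 had −0.67, Fbxo43 and Ube2c −0.58, Fbxo5 and Fbxo43 −0.57 and Ube2s and Mad2l1 −0.52. Cdc20 and Ube2c thus tended to be high in the same embryos. Fbxo43 tended to be high with Fzr1 and with Mad2l1. Fzr1 and Mad2l1 had only 0.24 with each other (0.15 over 29 embryos), with −0.32 in control- and 0.75 in SER-generated embryos. Ube2c and Mad2l1 had −0.34, with 0.15 in control- and −0.76 in SER-generated embryos. The genes were therefore not shown to form opposed sets.

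**Figure D4:**
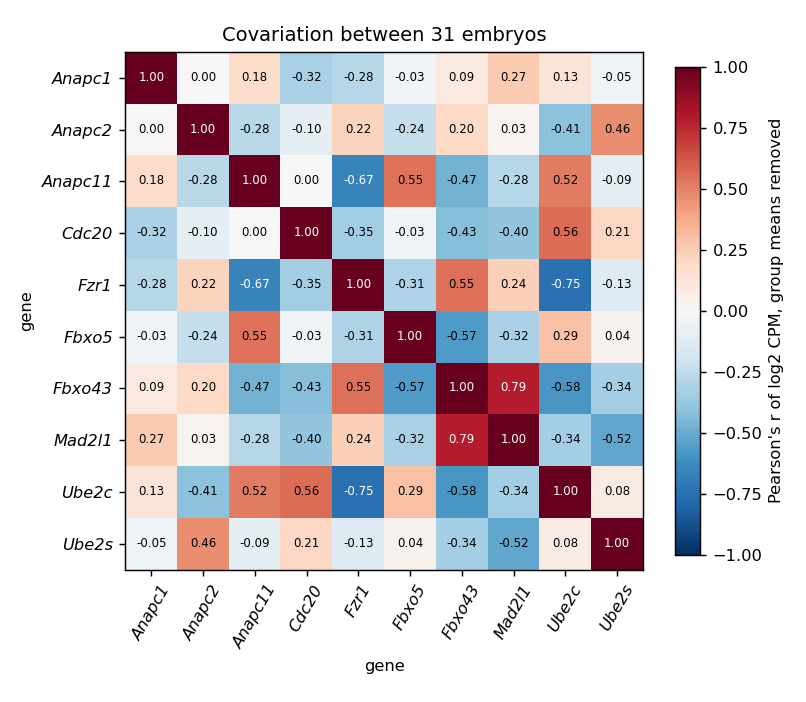
Pearson's r between each pair of the 10 genes over 31 embryos, from log2 CPM with group means removed, on a scale from −1 (blue) to 1 (red). Fbxo43 with Mad2l1 is the highest at 0.79 and Fzr1 with Ube2c the lowest at −0.75.

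The balance between paired regulators followed from these values. Per kilobase, Cdc20 exceeded Fzr1 in 30 of 31 embryos, with a log2 ratio running from −0.42 in control embryo 14 through a median of 2.63 to 7.06 in control embryo 1, and from 0.86 through 3.40 to 6.02 in SER-generated embryos. Fbxo5 exceeded Fbxo43 in 28 of 31 embryos. The log2 ratio of Fbxo5 to Fbxo43 ran from −1.45 in control embryo 4 through 2.54 to 5.35 in control-generated embryos. In SER-generated embryos it ran from −1.78 in embryo 15 through 2.08 to 3.90. The groups overlapped for both ratios, and the 2 lowest values of the Fbxo5 ratio belonged to the 2 embryos that stood apart on the index.

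**Figure D5:**
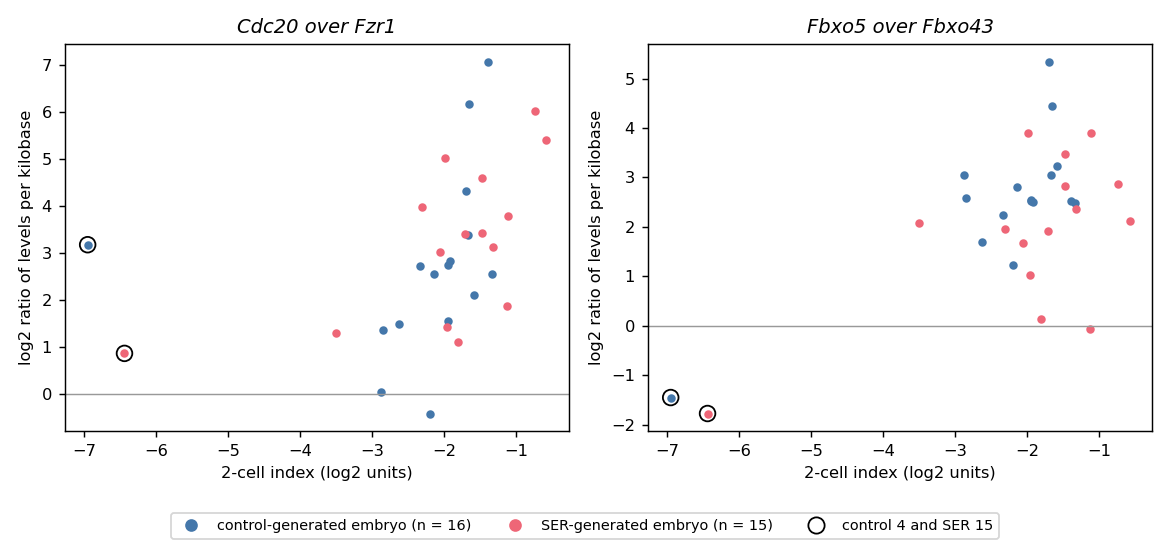
Log2 ratio of levels per kilobase of exon for Cdc20 over Fzr1 (left) and Fbxo5 over Fbxo43 (right) against the 2-cell index, 1 point per embryo, control-generated in blue and SER-generated in red, with rings around control embryo 4 and SER embryo 15. The grey line marks equal levels, below which lie 1 embryo on the left and 3 on the right.

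For the 4 regulators, the tested genes with the most similar pattern over 31 embryos were listed by the same r. The 29 embryos are among the 31 used to pick them, so r over 29 embryos is not an independent check. Cdc20 was most like Ubxn4 (0.73), Jmjd6 (0.72) and Cdca5, which encodes the cohesin regulator sororin (0.71), and these held at 0.71 to 0.84 over 29 embryos. Fzr1 was most like Gpr35 (0.88), Arhgef11 (0.87) and Aldh9a1 (0.86), and Fbxo43 like Klhl8 (0.86), Parp12 (0.84) and Rbm18 (0.84); all 6 stayed above 0.80 over 29 embryos. Fbxo5 was most like Mrps30 (0.88), Prdx4 (0.88) and Glul (0.88), and here r dropped to 0.44, 0.51 and 0.30 without control embryo 4 and SER embryo 15.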

How the data were processed

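RNA from 31 single 2-cell embryos was sequenced by the authors as Smart-seq3 libraries. According to the study's methods and the submitters' processing notes, the authors aligned reads with STAR to mm10, handled duplicates with UMI-tools and Picard, and deposited raw counts per gene from featureCounts; annotation, strand setting and versions are not given in the sources used here. Which embryos shared 1 of the study's batches is not in the labels, so batch was not a term and cannot be told apart from other differences between embryos.

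Deposited counts (532945 to 3088396 per embryo) were filtered with filterByExpr (minimum count 10), scaled by TMM and fitted with edgeR 4.0.16 (quasi-likelihood test) in R 4.3.3, with Benjamini-Hochberg adjustment over all tested genes and a threshold of 0.1. Scripts were tested on simulated data. DESeq2 1.42.0 and limma 3.58.1 were alternatives. Intervals are 95% from the fit, and the group difference in the index was tested with 100000 resamples. Exon lengths came from GENCODE vM21 (GRCm38), promoters from RefSeq. No 2 libraries of a group were alike within sampling noise. The 10 genes and the lists were chosen with earlier results of these data known. The text names all 10 genes, and of each pathway list every called gene or, with no call, the 2 smallest p in each direction; for 29 embryos, called genes are named in part. The 3 closest genes are named for 4 regulators, and the 3 highest genes of the oocyte and 2-cell lists. Leading cumulus genes were Amhr2, Hsd3b1 and Cyp11a1, and leading sperm genes Tssk6, Odf2l and Ldhc.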

Additional observations from a re-analysis of the deposited data

How the results depend on the processing

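Between SER- and control-generated embryos, the count of called genes was 0 over all genes, the 10 genes and the pathway lists with each embryo left out in turn (0 to 0), with both low-index embryos left out, and under the other scalings, the stricter filter, robust dispersion, the covariates of library size and index, thinning and a threshold of 0.05. It was 504 genes without a filter (2 of the pathway lists), 49 with DESeq2 (1), 848 with limma voom and sample weights (9, and 1 of the 10 genes) and 41 with 3 estimated clusters of embryos as covariate. Estimates changed sign with limma voom for Anapc11 (0.094), Fbxo43 (−0.17) and Ube2c (0.16), and with library size as covariate for Anapc1 (−0.030), Anapc2 (0.033) and Ube2s (0.22); the cause was not tested. With the replicate number as a block, over 15 shared numbers, 0 genes were called and Anapc2 had 0.078. Same-numbered embryos had correlations of −0.37 to 0.49 (median 0.11, 8 of 15 over 0.1), and 4 of 15 matched best with their own number. These values do not settle whether same-numbered embryos belong together. The labels do not name the numbers as pairs, so they were not taken as pairs in the main fit, and a batch shared by some of them was not tested. Over embryos left out in turn, no estimate changed sign, but most moved: Fzr1 from −0.48 to −0.0013 (the latter without control embryo 14), Anapc11 from −0.43 to −0.080 (without control embryo 1), Anapc2 from −0.21 to −0.016 (without SER embryo 4), Ube2c from −0.62 to −0.24 (without control embryo 1), Mad2l1 from −0.46 to −0.13 (without control embryo 1), Ube2s from −0.27 to −0.099 (without SER embryo 12), Cdc20 from 0.11 (without SER embryo 7) to 0.40, Anapc1 from 0.12 (without SER embryo 13) to 0.36, Fbxo43 from 0.23 (without SER embryo 15) to 0.57 and Fbxo5 from −0.61 to −0.44.

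Along the 2-cell index, the number of the 10 genes called (5) was 3 with the maternal list alone, 3 in control-generated embryos alone and 2 without both low-index embryos; leaving out each embryo in turn gave 2 to 6. Over all genes (4274 called, genes of the index included) it was 2251 in control- and 2744 in SER-generated embryos alone, 1295 without both low-index embryos, and 2705 to 4600 leaving out 1 embryo. Over the pathway lists (42 called) it was 22, 25, 18, and 33 to 45. With the maternal list alone, 3644 genes were called in all. Slopes changed sign for Cdc20 (−0.034 with the zygotic list alone, −0.12 in control-generated embryos, −0.0049 to 0.24 leaving out 1 embryo, the former SER embryo 7), Anapc1 (−0.38 with the maternal list alone, −0.039 with limma voom) and Ube2s (0.094 with the maternal list alone, 0.00026 with limma voom, 0.0017 with the stricter filter, 0.23 in SER-generated embryos, 0.079 with library size as covariate, −0.15 to 0.17 leaving out 1 embryo). Leaving out both low-index embryos, the other scalings of the index model, its library size covariate and the other transcript length were chosen after seeing the data.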
